A study of Mus musculus with 13 samples.

Results

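Axon guidance ligands and receptors were followed across 3 transgenic mouse models of neuroblastoma, a tumour of the sympathetic nervous system, and normal adrenal gland. The genes were chosen by name, as every gene of the ephrin receptor (Eph), ephrin, class 3 to 7 semaphorin, plexin, neuropilin, Slit, Robo, netrin and Unc5 families together with Dcc that has a probe set naming it alone. This gave 68 of the 18193 genes measured, of which 35 encode ligands and 33 receptors, and no measured value entered the choice. RNA was hybridised to Affymetrix mouse arrays, with 3 arrays of tumours carrying both MYCN and mutated ALK (called double transgenic here), 3 of tumours with mutated ALK alone (mutALK), 4 of tumours with MYCN alone and 3 of adrenal gland from normal mice. All 13 arrays come from the C57BL/6 background. Both transgenes are described as specific to the neural crest, from which sympathetic neurons and the adrenal medulla arise, and tumours were taken once they could be felt. The labels give neither the promoter of a transgene nor the ALK mutation nor the age of the animals, and whether arrays stem from separate animals is not stated, so p-values measure only the spread between these samples.

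Guidance cues steer growing axons and migrating cells, neural crest cells among them, by attraction or repulsion at the leading edge. Ephrins are membrane-held ligands of Eph receptor tyrosine kinases and signal between touching cells, Slits repel cells through Robo receptors, netrins act through Dcc and Unc5 receptors, and semaphorins act through plexins, the secreted class 3 members together with the neuropilins. Several of the same receptors also pattern blood vessels. In the sympathetic lineage Sema3a and neuropilin 1 are known to guide neural crest cells to the sites where sympathetic ganglia form.

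Values are log2 expression of the brightest probe set of a gene, so that 1 unit is a 2-fold change. Levels are given as mean ± SD, differences ± SE always as the first-named group less the second. A difference was called when its adjusted p from limma, with Benjamini-Hochberg adjustment over all genes, was under 0.05. Levels of different probe sets are on no common scale, so levels are compared only within a gene. No detection calls were used, and in genes that stay near the lower end of the scale a difference may be compressed. In such whole-tissue RNA fewer cells of a type and less RNA per cell cannot be told apart. Adrenal cortex markers averaged 11.49 to 12.83 over the list in adrenal arrays, and 9 of 9 were lower in each tumour group, whose arrays averaged 5.16 to 5.47 except double transgenic 1 at 6.92. Fat cell markers were also lower in each tumour group (6 of 6), with list means of 5.43 to 5.95 in double transgenic, 6.38 to 8.15 in mutALK and 6.33 to 9.08 in MYCN tumours, against 10.36 to 12.19 in gland. The part of cortex and fat in the falls against gland was not tested. In adrenal 2 the 15 pan-neuronal markers averaged 10.53, against 7.07 and 6.14 in adrenal 1 and 3 and 11.21 to 12.52 in the tumours. Liver markers were high in 5 arrays (list means 8.88 to 11.89 in mutALK 1 and 3, MYCN 2, adrenal 2 and double transgenic 1, against 4.71 to 6.32 in the other 8). Values without these arrays are given where they change a result.

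Against adrenal gland members rose and fell in each tumour group, with 22 rises against 14 falls in mutALK tumours and closer numbers in the other groups. In double transgenic tumours 37 of 68 genes were called (19 higher and 18 lower), where 48.6% of all genes were called (24.3% higher and 24.2% lower). In mutALK tumours 36 were called (22 higher and 14 lower), against 42.2% of all genes (21.3% higher and 21.0% lower), and in MYCN tumours 35 (16 higher and 19 lower), against 50.2% (25.4% higher and 24.8% lower). The share of members called, 51.5% to 54.4%, was thus near the background in MYCN and double transgenic tumours and somewhat above it in mutALK tumours at 52.9%. Without the dimmest 40% of genes, 47 members were tested. Of these, 16 rose and 14 fell in double transgenic, 20 and 9 in mutALK and 13 and 13 in MYCN tumours. All genes were then called at 67.1%, 60.1% and 69.9%, so that the mutALK share was near the background and the MYCN share below it. Sizes were larger than over all genes, since the median absolute difference of the members was 0.99, 0.73 and 0.71 in double transgenic, mutALK and MYCN tumours, where that of all genes was 0.48, 0.4 and 0.49. All genes hold a larger share of dim genes, whose differences may be compressed, and no comparison at like level was made. Changes of at least 2-fold were called for 28, 27 and 26 members in that order, against 28.1%, 23.4% and 28.6% of all genes, and the arrays of tumour and gland did not overlap for 41, 40 and 38 members, against 53.2%, 48.2% and 53.4% of all genes. These 3 comparisons share the adrenal arrays.

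The genes called higher in all 3 tumour groups numbered 10, namely Dcc, Efna2, Efna4, Efnb3, Epha7, Nrp2, Plxna3, Slit2, Slit3 and Unc5d, or 14.7% of members, where 14.6% of all genes were. Those called lower in all 3 numbered 12, namely Efnb1, Epha2, Epha3, Ephb4, Ephb6, Ntn1, Plxnb1, Robo1, Robo4, Sema3d, Sema4b and Sema5b, or 17.6% of members, where 15.8% of all genes were. Both shares lay near the background. No gene was called higher in 1 tumour group and lower in another. In no comparison of any kind were Epha6, Epha8, Epha10, Ephb1, Ephb3, Ntn3, Ntn5, Robo3, Sema3e, Sema4a, Sema5a, Sema6c or Unc5a called, whose differences ran from -1.11 (Sema4a, double transgenic minus adrenal) to 0.94 (Ephb1, MYCN minus adrenal).

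**Figure D1:**
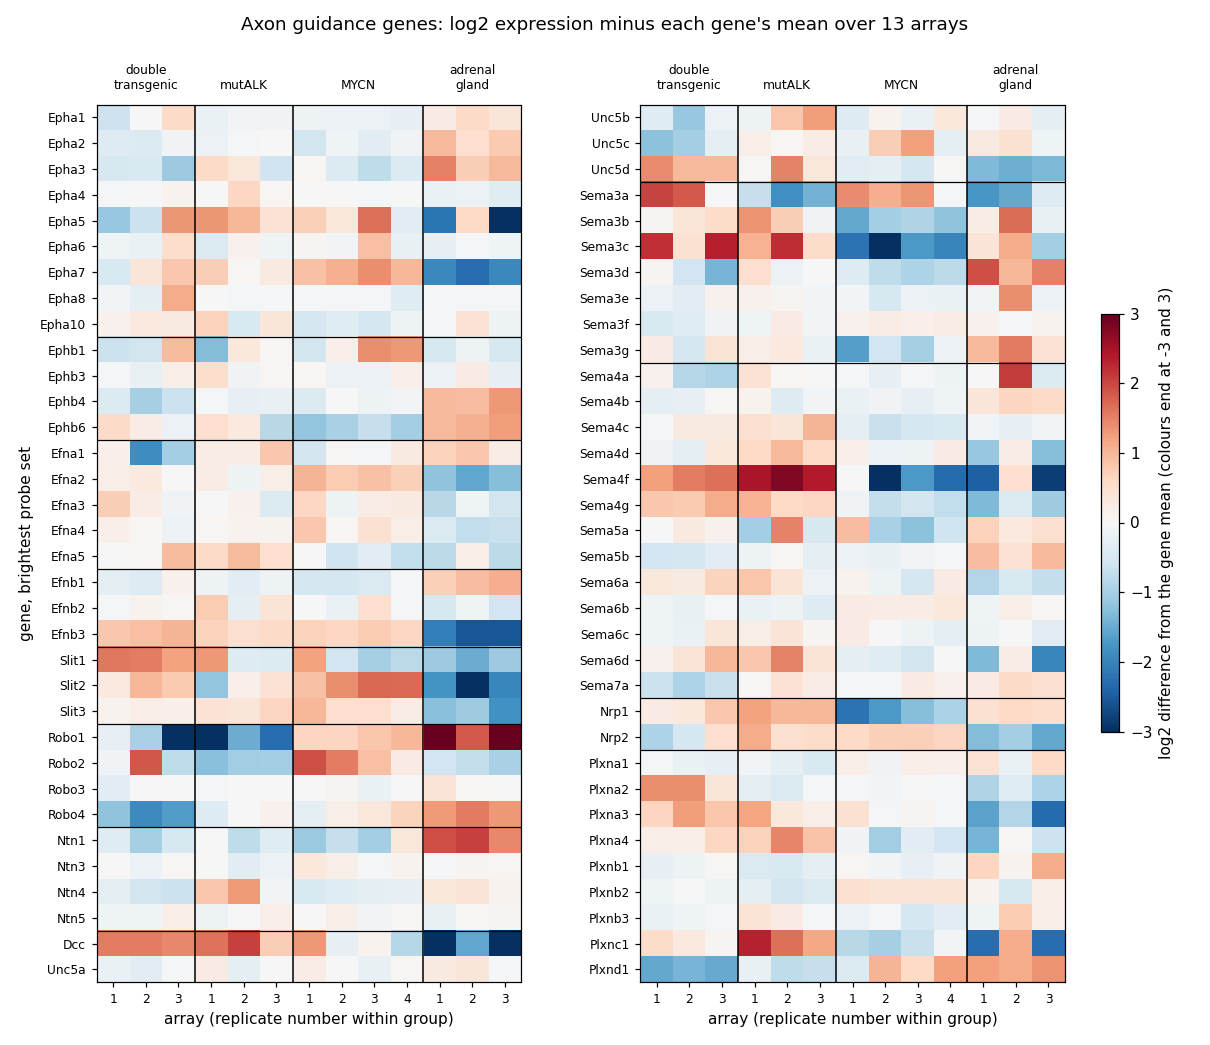
Colour shows log2 expression of each of the 68 genes minus its mean over the 13 arrays, with arrays in columns by group and genes in rows by family. Efnb3, Epha7, Slit2 and Slit3 are blue in all 3 adrenal arrays and mostly red in the tumours, Sema3c and Nrp1 are blue in the 4 MYCN arrays, and adrenal 2 differs from adrenal 1 and 3 for Epha5, Sema4f and Plxnc1.

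Because the MYCN protein binds the E-box CACGTG, this motif, which reads the same on both strands, was looked for in the 250 bases before each start site in RefSeq (GRCm38.p6), where 58 of the 68 genes have an entry. The motif stood before 4 of these genes (6.9%), Epha8, Robo2, Sema4b and Sema6d, and before 6.9% of all 27025 genes in the same table, so these windows held it no more often than others. The sequences of Robo2 and Sema6d are shown because their transcripts differ between tumour groups or from the gland as described below, and those of Nrp1 and Sema4f, which have no CACGTG in the window, because they carry large differences between mutALK and MYCN tumours. Each is the gene's strand, 5′ to 3′, and ends at the base before the start site, with capitals marking the E-box. It begins at base -18 in Robo2 and at -23 in Sema6d, counted back from the start site, and the other listed starts of these 2 genes lack it.
Robo2, chr16:75447294-75447543, minus strand: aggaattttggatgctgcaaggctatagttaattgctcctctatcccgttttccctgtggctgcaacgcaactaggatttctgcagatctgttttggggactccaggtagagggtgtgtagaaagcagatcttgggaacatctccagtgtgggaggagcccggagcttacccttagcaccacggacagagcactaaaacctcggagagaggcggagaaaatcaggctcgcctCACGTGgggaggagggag
Sema6d, chr2:124089719-124089968, plus strand: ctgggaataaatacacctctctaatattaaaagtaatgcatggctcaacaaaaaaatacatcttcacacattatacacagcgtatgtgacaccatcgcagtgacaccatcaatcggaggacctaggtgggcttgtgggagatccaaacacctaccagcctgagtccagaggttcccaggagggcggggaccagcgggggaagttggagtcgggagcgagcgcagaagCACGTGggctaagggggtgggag
Nrp1, chr8:128358823-128359072, plus strand: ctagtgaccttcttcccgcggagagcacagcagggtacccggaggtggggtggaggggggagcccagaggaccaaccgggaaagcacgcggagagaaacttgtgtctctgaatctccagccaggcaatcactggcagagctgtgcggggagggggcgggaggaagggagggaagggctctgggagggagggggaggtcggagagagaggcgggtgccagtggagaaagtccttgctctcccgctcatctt
Sema4f, chr6:82939770-82940019, minus strand: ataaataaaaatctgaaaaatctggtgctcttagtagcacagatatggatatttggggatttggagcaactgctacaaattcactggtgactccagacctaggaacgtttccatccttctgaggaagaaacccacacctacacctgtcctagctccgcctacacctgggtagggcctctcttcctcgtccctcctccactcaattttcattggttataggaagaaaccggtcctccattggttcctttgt

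Among ephrins and their receptors the neural ligand Efnb3 gave the clearest separation of tumour from gland. Efnb3, a transmembrane ephrin of the midline and of neurons, read 9.16, 9.26 and 9.36 in double transgenic, 9.05, 8.82 and 8.93 in mutALK and 9.05, 8.97, 9.12 and 8.97 in MYCN tumours, against 6.28, 5.78 and 5.79 in adrenal gland. All 10 tumour arrays thus lay more than 2 units above the highest gland array. The rise was 3.31 ± 0.14 in double transgenic (adjusted p = 6.42e-08), 2.99 ± 0.14 in mutALK (2.08e-07) and 3.08 ± 0.13 in MYCN tumours (3.67e-08, limma). Efna2, a lipid-anchored ephrin, read 8.22, 8.35 and 8.04 in double transgenic, 8.26, 7.89 and 8.22 in mutALK and 9.06, 8.8, 8.93 and 8.75 in MYCN tumours, against 6.83, 6.48 and 6.76 in gland. Every tumour array exceeded the gland, and every MYCN array exceeded the arrays of both other tumour groups. Efna2 rose over gland by 1.51 ± 0.14, 1.43 ± 0.14 and 2.19 ± 0.13 in the 3 groups (adjusted p = 5.89e-06, 1.54e-05 and 2.37e-07), and was lower than in MYCN tumours by -0.68 ± 0.13 in double transgenic (adjusted p = 0.00817) and by -0.76 ± 0.13 in mutALK tumours (0.00131). Its dimmer probe set was also called higher than gland in each tumour group but not different between tumours.

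Epha7, an A-class receptor of developing neurons, read 7.91, 8.74 and 9.19 in double transgenic, 9.11, 8.41 and 8.64 in mutALK and 9.26, 9.45, 9.78 and 9.38 in MYCN tumours, against 6.45, 6.09 and 6.45 in gland. It rose by 2.28 ± 0.29, 2.38 ± 0.29 and 3.13 ± 0.27 (adjusted p = 5.32e-05, 6.19e-05 and 2.38e-06), and all 4 of its probe sets were called higher in each group. The mean of the 4 probe sets gave 1.89 in MYCN tumours. Epha5, also a neuronal receptor, was called higher in mutALK at 2.5 ± 0.89 (adjusted p = 0.0408) and MYCN tumours at 2.17 ± 0.83 (0.048), but its groups overlapped, since adrenal 2 read 8.74 against 5.94 and 5.02 in adrenal 1 and 3. Efna4 rose modestly in all 3 groups, by 0.63 to 1.0, and Efna5, a repellent ligand of many axon tracts, was called in mutALK tumours alone, at 1.14 ± 0.32 over gland (adjusted p = 0.0133) and 1.09 ± 0.3 over MYCN tumours (0.0168).

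The falling members of the family were Efnb1, Epha2, Epha3, Ephb4, Ephb6 and, in double transgenic tumours, Efna1. Ephb6, a receptor without kinase activity, read 6.3, 5.93 and 5.55 in double transgenic, 6.21, 6.0 and 4.88 in mutALK and 4.53, 4.74, 5.03 and 4.69 in MYCN tumours, against 6.7, 6.78 and 6.98 in gland. The double transgenic arrays lay between the gland and all MYCN arrays without overlapping either. Ephb6 fell against gland (-0.89 ± 0.3, -1.12 ± 0.3 and -2.07 ± 0.28, adjusted p = 0.0293, 0.0105 and 7.67e-05) and was higher than in MYCN tumours by 1.18 ± 0.28 in double transgenic tumours (0.0203). Leaving out any of MYCN 2, MYCN 4, double transgenic 1 and double transgenic 2 ended that last call, with an adjusted p of 0.0502 to 0.0717. The double transgenic difference from gland was called in 16 of 22 alternatives, and without mutALK 3 the difference of mutALK from gland was -0.72. Efnb1, an X-linked ligand, fell (-1.1 ± 0.17, -1.13 ± 0.17 and -1.3 ± 0.16 in double transgenic, mutALK and MYCN tumours), and all 3 of its probe sets were called lower in each tumour group. Epha2, an epithelial receptor, fell as well (-1.06, -0.83 and -1.03). Epha3 was dim throughout, at 2.78 to 5.38, and fell by 1.75 ± 0.32 in double transgenic tumours (adjusted p = 0.000765), a value that was -0.78 as the mean of its 4 probe sets. Efna1 read 6.84, 4.81 and 5.65 in double transgenic tumours, against 7.38, 7.48 and 6.91 in gland (-1.49 ± 0.42, adjusted p = 0.0109), and lost its call when the arrays of those 2 groups were fitted alone (0.0586).

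**Figure D2:**
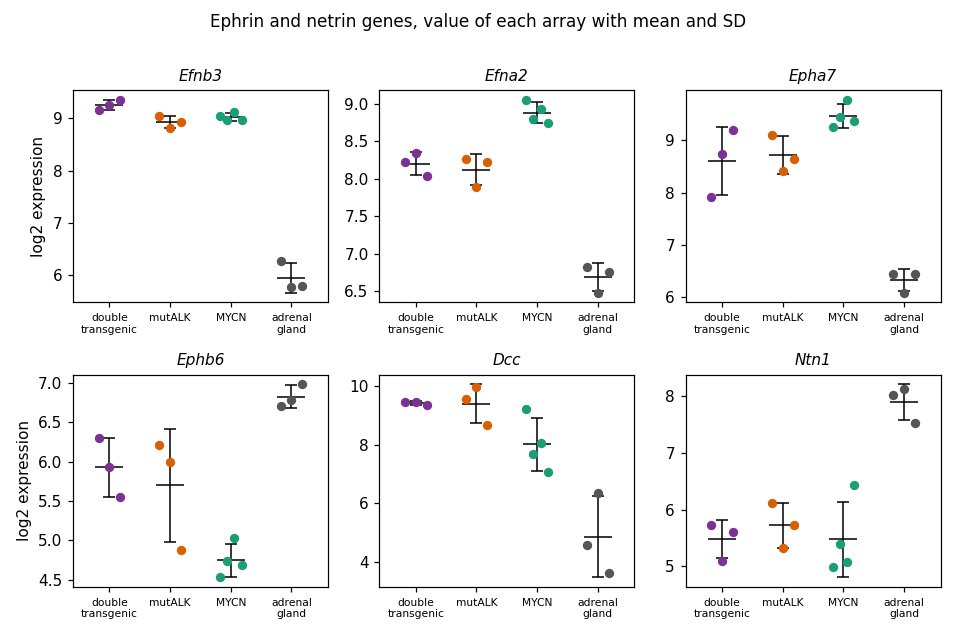
Log2 expression of 6 ephrin and netrin genes in each array, by group, with the group mean and SD (n = 3, 3, 4 and 3). Efnb3, Efna2, Epha7 and Dcc lie above the adrenal gland in every tumour array, and Ephb6 and Ntn1 lie below it in every tumour array.

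The ligands Slit2 and Slit3 were higher in all 3 tumour groups than in gland, while Robo1 was lower. Slit2, a repellent secreted protein, read 10.66, 11.37 and 11.16 in double transgenic, 9.18, 10.52 and 10.8 in mutALK and 11.24, 11.76, 12.1 and 12.07 in MYCN tumours, against 8.57, 6.94 and 8.41 in gland. All tumour arrays exceeded the gland, and all MYCN arrays exceeded all mutALK arrays. Slit2 rose over gland by 3.09 ± 0.48 in double transgenic (adjusted p = 0.000238), 2.19 ± 0.48 in mutALK (0.00322) and 3.82 ± 0.45 in MYCN tumours (2.51e-05). In mutALK minus MYCN tumours it was lower by -1.63 ± 0.45 (adjusted p = 0.0171), a call lost without mutALK 1 (-1.14, adjusted p = 0.0784). Both other Slit2 probe sets were called lower in mutALK than in MYCN tumours too, at -1.72 and -2.77. Slit3 rose by 1.54 ± 0.21, 1.87 ± 0.21 and 1.95 ± 0.2 over gland (adjusted p = 8.73e-05, 3.57e-05 and 7.37e-06) with no overlap of any tumour array with the gland.

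Slit1 set the double transgenic tumours apart from gland but not from other tumours by the test. It read 8.83, 8.79 and 8.45 in double transgenic, 8.54, 6.86 and 6.83 in mutALK and 8.46, 6.67, 6.26 and 6.45 in MYCN tumours, against 6.16, 5.75 and 6.16 in gland. One array each of the single transgenic groups, mutALK 1 and MYCN 1, reached the double transgenic range. Slit1 rose by 2.67 ± 0.56 in double transgenic tumours (adjusted p = 0.00186), a value that was 1.77 as the mean of both probe sets.

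Robo1, the receptor that binds Slits in many migrating cells, had the largest fall of all 68 genes in double transgenic and mutALK tumours. It read 7.74, 7.02 and 4.84 in double transgenic, 4.42, 6.5 and 5.71 in mutALK and 8.65, 8.65, 8.83 and 9.0 in MYCN tumours, against 11.16, 9.84 and 11.6 in gland. The 4 MYCN arrays lay close together between the gland and every array of both other tumour groups. Against gland Robo1 differed by -4.33 ± 0.71 in double transgenic (adjusted p = 0.000349), -5.32 ± 0.71 in mutALK (0.000118) and -2.08 ± 0.67 in MYCN tumours (0.0212). The MYCN call was lost without adrenal 1 (-1.94, adjusted p = 0.0683) or adrenal 3 (-1.72, 0.0878). Between tumours Robo1 was lower than in MYCN tumours by -3.24 ± 0.67 in mutALK (adjusted p = 0.00339) and by -2.25 ± 0.67 in double transgenic tumours (0.0486). The mutALK difference was -2.32 without the liver arrays (0.06), and the double transgenic one lost its call in 12 of 23 alternatives and was -1.4 without double transgenic 3 (0.174). The other 2 Robo1 probe sets were dim, and means of all 3 gave -1.72, -2.08 and -0.86 against gland, each still called.

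Robo2, a second Slit receptor of neurons, was dim in most arrays and was raised in MYCN tumours. It read 3.86, 5.83 and 3.22 in double transgenic, 2.71, 2.92 and 2.96 in mutALK and 5.9, 5.52, 4.87 and 4.22 in MYCN tumours, against 3.4, 3.26 and 2.99 in gland. The mutALK and gland arrays all stayed under 3.5, all MYCN arrays were above 4, and the double transgenic arrays were split. Robo2 rose by 1.91 ± 0.53 in MYCN tumours over gland (adjusted p = 0.0104, or 1.8 and 0.106 without the liver arrays) and was lower in mutALK than in MYCN tumours by -2.26 ± 0.53 (0.00734, or -2.08 and 0.191 without the liver arrays, where mutALK is 1 array). In double transgenic tumours it differed from gland by 1.09 ± 0.57 (adjusted p = 0.144) and from MYCN tumours by -0.83 ± 0.53 (0.368). Robo3, which modulates Slit responses in crossing axons, read 3.64 to 4.35 over all arrays and was not called.

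**Figure D3:**
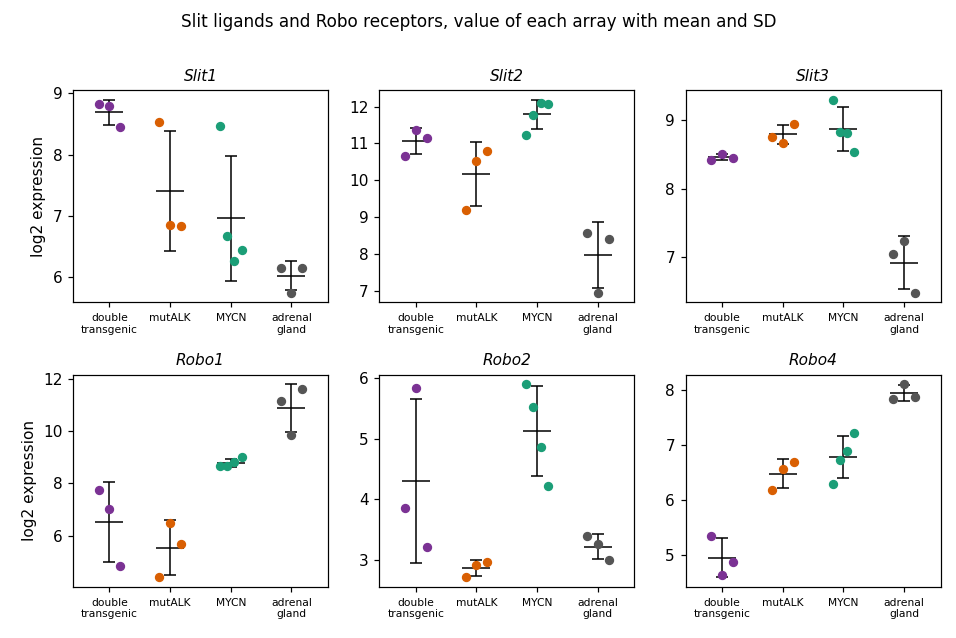
Log2 expression of Slit1, Slit2, Slit3, Robo1, Robo2 and Robo4 in each array, by group, with the group mean and SD (n = 3, 3, 4 and 3). Slit2 and Slit3 lie higher in all tumour arrays than in adrenal gland, Robo1 and Robo4 lie lower, and Robo2 is above 4 in the 4 MYCN arrays and double transgenic 2.

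In the netrin system Dcc, the receptor through which netrin attracts axons, was among the strongest rises of the whole set. Dcc read 9.48, 9.47 and 9.37 in double transgenic, 9.56, 9.98 and 8.67 in mutALK and 9.24, 7.69, 8.05 and 7.09 in MYCN tumours, against 4.59, 6.37 and 3.63 in gland. All tumour arrays were higher than the highest gland array, adrenal 2. The rise was 4.58 ± 0.66 in double transgenic (adjusted p = 0.000125), 4.54 ± 0.66 in mutALK (2e-04) and 3.15 ± 0.61 in MYCN tumours (0.00105), and 5.33, 5.29 and 3.9 without adrenal 2. A second Dcc probe set also rose in all 3 groups (3.66, 4.11 and 2.56), whereas the dimmest, at a mean of 6.03, was called lower in double transgenic tumours at -0.48 ± 0.14. The mean of the 3 probe sets rose by 2.59, 2.8 and 1.84.

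Ntn1, the netrin that Dcc binds, moved the other way. It read 5.73, 5.1 and 5.6 in double transgenic, 6.11, 5.33 and 5.72 in mutALK and 4.98, 5.4, 5.07 and 6.44 in MYCN tumours, against 8.02, 8.13 and 7.53 in gland. No tumour array overlapped the gland, and Ntn1 fell in each group (-2.42 ± 0.36, -2.18 ± 0.36 and -2.42 ± 0.33, adjusted p = 0.000158, 0.000479 and 8.32e-05). Its second probe set was dim and was not called, and the means of both were -1.34, -1.2 and -1.33. Unc5d, a receptor that mediates repulsion by netrin, read 7.03, 6.58 and 6.58 in double transgenic, 5.66, 7.11 and 5.96 in mutALK and 5.27, 5.31, 5.12 and 5.66 in MYCN tumours, against 4.29, 4.14 and 4.27 in gland. It rose in all 3 groups, by 2.5 ± 0.3, 2.01 ± 0.3 and 1.11 ± 0.28 (adjusted p = 3.82e-05, 0.000276 and 0.00643), and was higher than in MYCN tumours in double transgenic (1.39 ± 0.28, 0.0101) and mutALK tumours (0.9 ± 0.28, 0.0313). The related Unc5a was called nowhere.

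Semaphorins moved in both directions. Of 7 class 3 semaphorins, 1 rose and 2 fell in double transgenic tumours, 0 rose and 1 fell in mutALK tumours and 1 rose and 4 fell in MYCN tumours, with median differences of -0.38, -0.09 and -1.72. Over all genes 24.2%, 21.0% and 24.8% fell in these groups, 24.3%, 21.3% and 25.4% rose, and the medians were -0.03, 0 and -0.02. Sema3d, a dim gene at 2.81 to 6.14, fell in all 3 groups (-2.12 ± 0.35, -1.37 ± 0.35 and -2.2 ± 0.33). The mean of its probe sets gave -1.4, -0.83 and -1.38, each still called. Sema3g, which arterial endothelium is known to make, fell in MYCN tumours (4.82, 5.89, 5.47 and 6.29, against 7.45, 8.02 and 6.9 in gland, -1.84 ± 0.36, adjusted p = 0.00104). Of 13 membrane-bound semaphorins, 4 rose and 3 fell in double transgenic tumours, 6 rose and 2 fell in mutALK tumours and 0 rose and 3 fell in MYCN tumours. Sema6d, a transmembrane ligand of Plxna1 that also acts in heart development, rose by 1.92 ± 0.47 in mutALK (adjusted p = 0.00615) and 1.53 ± 0.47 in double transgenic tumours (0.0182). Adrenal 2 (10.41) overlapped the double transgenic range of 10.33 to 11.2, and adrenal 1 and 3 read 8.88 and 8.24. Sema5b (-1.24 to -0.9) and Sema4b (-0.7 to -0.64) fell in each group.

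Among the semaphorin receptors Plxna3 and Nrp2 rose in each tumour group. Plxna3, an X-linked plexin through which class 3 semaphorins repel axons, read 9.15, 9.75 and 9.33 in double transgenic, 9.68, 8.83 and 8.68 in mutALK and 8.96, 8.45, 8.59 and 8.44 in MYCN tumours, against 6.9, 7.63 and 6.19 in gland. It rose by 2.5 ± 0.35, 2.16 ± 0.35 and 1.7 ± 0.33 (adjusted p = 0.000105, 0.00044 and 0.000952), in both of its probe sets. Nrp2, a co-receptor for Sema3f and others, read 9.09, 9.49 and 10.5 in double transgenic, 11.11, 10.48 and 10.55 in mutALK and 10.61, 10.72, 10.72 and 10.66 in MYCN tumours, against 8.7, 8.98 and 8.46 in gland. It rose by 0.98 ± 0.3, 2.0 ± 0.3 and 1.96 ± 0.28 (adjusted p = 0.0183, 0.000264 and 0.000111) but its probe sets disagreed. Next in brightness, 2 of them differed from gland by -0.66 and -0.65 in double transgenic, 0.82 and 0.62 in mutALK and 0.15 and 0.15 in MYCN tumours, none of them called, and the mean of all 4 in MYCN tumours was 0.93. Plxnb1, a receptor of Sema4d, fell in each (-0.74 ± 0.2, -1.02 ± 0.2 and -0.72 ± 0.19).

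Between the tumour groups fewer members were called, and these 3 comparisons share arrays pairwise. In mutALK minus MYCN tumours 20 of 68 differed (12 higher and 8 lower), where 30.8% of all genes did (13.6% higher and 17.2% lower). In double transgenic minus MYCN tumours 20 differed (9 higher and 11 lower), or 29.4%, where 12.8% of all genes did (6.16% higher and 6.66% lower), and in double transgenic minus mutALK tumours 7 differed (2 higher and 5 lower), where 14.4% of all genes did (8.39% higher and 6.04% lower). Called changes of at least 2-fold numbered 15, 12 and 6 in this order, against 12.6%, 4.31% and 5.24% of all genes, and groups did not overlap for 23, 30 and 22 members, against 40.6%, 30.6% and 32.9%. The share of members called was near the background in mutALK minus MYCN and below it in double transgenic minus mutALK tumours. In double transgenic minus MYCN tumours it was above it. When single arrays were left out, 4 to 11 members were called in each direction, where 6.74% to 18.5% of all genes were called. Without MYCN 2, for example, 5 members were higher and 4 lower, where 6.87% of all genes were called. Without double transgenic 2 these counts were 4 and 5 (7.52%). Without the dimmest 40% of genes, 11 of 47 members were higher and 6 lower in mutALK minus MYCN, where 47.4% of all genes were called. In double transgenic minus MYCN these counts were 7 and 11 (21.6%), and in double transgenic minus mutALK 1 and 7 (24.3%). The share in mutALK minus MYCN was then below the background.

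Nrp1, the neuropilin that binds Sema3a, was the member with the smallest adjusted p between tumours. It read 11.04, 11.11 and 11.58 in double transgenic, 11.98, 11.78 and 11.77 in mutALK and 8.57, 9.05, 9.51 and 9.84 in MYCN tumours, against 11.24, 11.38 and 11.32 in gland. The 4 MYCN arrays lay below all 9 others, and the double transgenic arrays overlapped the gland. Nrp1 was higher than in MYCN tumours by 2.6 ± 0.25 in mutALK (adjusted p = 4.63e-05) and by 2.01 ± 0.25 in double transgenic tumours (0.00106), or 6.07-fold and 4.01-fold. Against gland it fell by 2.07 ± 0.25 in MYCN tumours (adjusted p = 3.09e-05) and differed by 0.53 ± 0.27 in mutALK (0.142) and -0.06 ± 0.27 in double transgenic tumours (0.872). All 4 probe sets were called lower in MYCN tumours than in mutALK, double transgenic and gland arrays, by 1.0 to 2.9 log2 units in size.

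The secreted semaphorins Sema3c and Sema3b were also lowest in MYCN tumours. Sema3c, a class 3 semaphorin that attracts some axons, read 9.68, 7.95 and 9.82 in double transgenic, 8.53, 9.7 and 8.04 in mutALK and 5.27, 4.13, 5.77 and 5.51 in MYCN tumours, against 7.87, 8.6 and 6.46 in gland. The MYCN arrays lay below every other array. Sema3c was higher than in MYCN tumours by 3.98 ± 0.63 in double transgenic (adjusted p = 0.0031) and 3.58 ± 0.63 in mutALK tumours (0.00135), which the mean of both its probe sets gave as 2.36 and 2.15. Against gland it fell by 2.47 ± 0.63 in MYCN tumours (adjusted p = 0.006), or by 1.65 with an adjusted p of 0.0631 without the liver arrays. Sema3b, another secreted member, had group means of 6.2, 6.54, 4.71 and 6.43 in double transgenic, mutALK, MYCN and gland, with mutALK minus MYCN at 1.83 ± 0.42 (adjusted p = 0.00672) and double transgenic minus MYCN at 1.49 ± 0.42 (0.041). The second of these lost its call in 12 of 22 alternatives, with adjusted p up to 0.135, and neither of the other probe sets of Sema3b was called in these comparisons.

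Sema3a, the repellent that acts through Nrp1 and class A plexins, had another pattern. It read 8.22, 8.05 and 6.18 in double transgenic, 5.51, 4.36 and 4.78 in mutALK and 7.63, 7.29, 7.52 and 6.15 in MYCN tumours, against 4.45, 4.67 and 5.82 in gland. Arrays of both MYCN-bearing groups lay above all mutALK and gland arrays. Sema3a was higher in double transgenic than in mutALK tumours by 2.6 ± 0.59 (adjusted p = 0.0157), lower in mutALK than in MYCN tumours by -2.26 ± 0.55 (0.00832), and higher than in gland by 2.51 ± 0.59 in double transgenic (0.00378) and 2.17 ± 0.55 in MYCN tumours (0.0057). Without the liver arrays the values were 2.75, -2.73, 1.98 and 1.97 and none was called (adjusted p 0.0613 to 0.121). The double transgenic minus mutALK call also ended when mutALK 2, double transgenic 1 or double transgenic 2 was left out, with an adjusted p of 0.0514 to 0.0686. With the arrays of those 2 groups alone it was lost too (adjusted p = 0.0533). Averaging arrays that share a title number ended this call (2.45, adjusted p = 0.0625) and that of mutALK minus MYCN tumours (-2.02, 0.0712). Double transgenic and MYCN tumours differed by 0.34 (not called).

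Sema4f, a transmembrane semaphorin of neurons and glia, had the largest difference between mutALK and MYCN tumours. It read 8.73, 9.03 and 9.14 in double transgenic, 9.95, 10.28 and 9.86 in mutALK and 7.5, 4.24, 5.77 and 5.18 in MYCN tumours, against 5.05, 8.0 and 4.66 in gland. The 3 groups of tumours did not overlap. Sema4f was higher than in MYCN tumours by 4.36 ± 0.81 in mutALK (adjusted p = 0.00186) and 3.29 ± 0.81 in double transgenic tumours (0.0223), and its other probe set gave 2.04 and 1.4, both called. Leaving out any of MYCN 2, 3 and 4 and double transgenic 2 and 3 ended the double transgenic call, with an adjusted p of 0.0506 to 0.078. Averaging arrays that share a title number also ended it (3.07, adjusted p = 0.0686). Against gland the rise of Sema4f was 4.13 ± 0.86 in mutALK (adjusted p = 0.00237) and 3.06 ± 0.86 in double transgenic tumours (0.0115, or 2.44 and 0.0504 without adrenal 3), while MYCN tumours differed by -0.23 ± 0.81 (0.847). Without adrenal 2 the mutALK and double transgenic values were 5.18 and 4.11. Sema4f, Sema3c, Sema3b, Nrp1 and the Chl1 described below were all lower in MYCN than in mutALK tumours. So were most markers of Schwann cells, the glia of peripheral nerves. The Schwann cell list means were 7.52 to 7.69 in double transgenic, 7.23 to 8.29 in mutALK and 6.53 to 6.84 in MYCN tumours, against 6.92 to 8.67 in gland. Of 8 such markers, 5 were higher and 1 lower in mutALK minus MYCN tumours (median 1.14), and 2 were higher in double transgenic minus MYCN tumours (0.62). In MYCN tumours against gland 2 were higher and 4 lower (-1.05), where Sema4f was not called. Of 9 chromaffin cell markers, 4 were higher in mutALK minus MYCN tumours (1.45), with list means of 11.21 to 11.68 in mutALK against 9.6 to 10.08 in MYCN tumours. The part of these cells in the differences was not tested. Sema4g was higher than in MYCN tumours by 1.43 ± 0.22 in double transgenic (adjusted p = 0.00301) and 1.28 ± 0.22 in mutALK tumours (0.00136), and Sema4c, a ligand of Plxnb2, by 0.64 ± 0.16 (0.025) and 1.1 ± 0.16 (0.000446). Plxnb2 itself ran the other way, lower than in MYCN tumours by -0.51 ± 0.15 in double transgenic and -0.84 ± 0.15 in mutALK tumours (adjusted p = 0.0425 and 0.00128).

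Among the plexins, Plxnc1 and Plxna4 differed between mutALK and MYCN tumours. Plxnc1, the receptor of Sema7a, read 8.64, 8.39 and 8.18 in double transgenic, 10.41, 9.75 and 9.25 in mutALK and 7.26, 7.11, 7.42 and 8.02 in MYCN tumours, against 5.82, 9.2 and 5.8 in gland. The tumour groups did not overlap, and adrenal 2 lay among the tumours. In mutALK tumours Plxnc1 exceeded MYCN tumours by 2.35 ± 0.68 (adjusted p = 0.0213) and gland by 2.86 ± 0.73 (0.00761). The first call was lost without mutALK 1, mutALK 2 or MYCN 2 and with arrays sharing a title number averaged (adjusted p 0.0548 to 0.0846). Of the 5 other probe sets, however, 4 were called the same way. The difference from gland was 3.99 without adrenal 2 and 1.57 as the mean of all its probe sets. It lost its call with the arrays of those 2 groups alone (adjusted p = 0.0674). Plxna4, which transmits Sema3a signals in sympathetic neurons, exceeded MYCN tumours in mutALK tumours by 1.51 ± 0.33 (adjusted p = 0.00443), in both its probe sets.

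**Figure D4:**
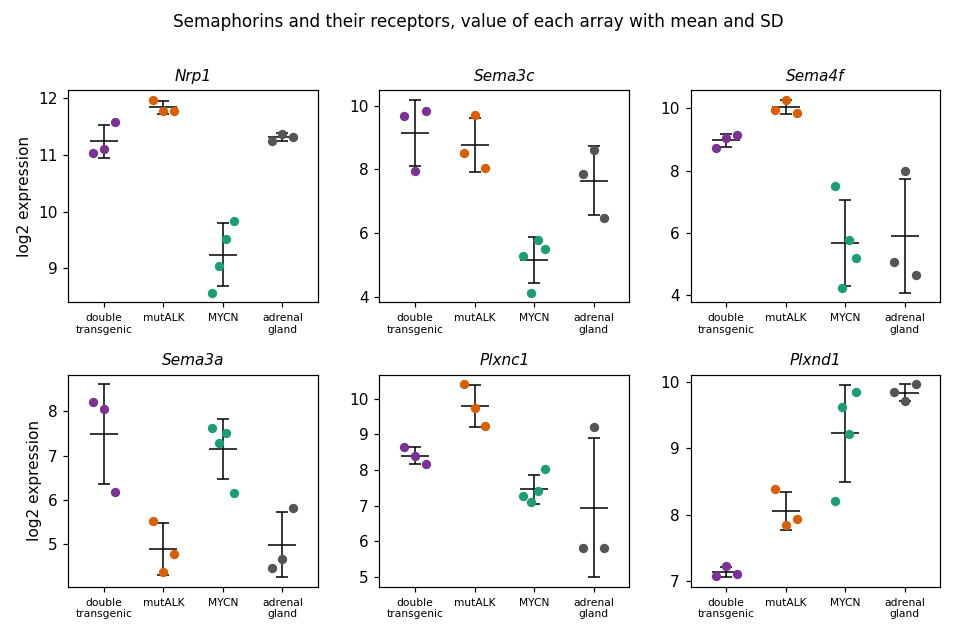
Log2 expression of Nrp1, Sema3c, Sema4f, Sema3a, Plxnc1 and Plxnd1 in each array, by group, with the group mean and SD (n = 3, 3, 4 and 3). The 4 MYCN arrays lie below all double transgenic and mutALK arrays for Nrp1, Sema3c, Sema4f and Plxnc1, Sema3a lies lower in mutALK than in the other tumours, and Plxnd1 lies lowest in the double transgenic arrays.

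Plxna2, a class A plexin of neural crest and neurons, was the member raised in double transgenic tumours over both single transgenic groups. It read 9.3, 9.29 and 8.28 in double transgenic, 7.64, 7.47 and 7.85 in mutALK and 7.85, 7.82, 7.89 and 7.86 in MYCN tumours, against 7.01, 7.55 and 6.98 in gland. All double transgenic arrays exceeded all others, with double transgenic 3 the lowest of them. Plxna2 was higher than in mutALK tumours by 1.3 ± 0.25 (adjusted p = 0.00821) and than in MYCN tumours by 1.1 ± 0.23 (0.0124). Without the liver arrays the values were 1.31 and 0.91 and neither was called (0.0689 and 0.0782), the first was not called with the arrays of those 2 groups alone (0.0548), and without double transgenic 2 the second was 0.93 (0.0545). Its 3 other probe sets gave 0.76 to 1.0 over mutALK tumours, 2 of them called, and 0.18 to 0.86 over MYCN tumours, 1 of them called.

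The members that fell in double transgenic relative to mutALK tumours were Robo4, Unc5b, Ntn4, Nrp2 and Sema7a. Sema7a, a lipid-anchored semaphorin that also acts on immune cells, read 6.75, 6.47 and 6.73 in double transgenic, 7.43, 7.84 and 7.62 in mutALK and 7.34, 7.34, 7.64 and 7.54 in MYCN tumours, against 7.64, 7.98 and 7.89 in gland. All 3 double transgenic arrays lay below the 10 others, with differences of -0.98 ± 0.14 from mutALK (adjusted p = 0.00282), -0.82 ± 0.13 from MYCN (0.00361) and -1.19 ± 0.14 from gland arrays (3.36e-05). Ntn4, a netrin of basement membranes, read 7.54, 7.28 and 7.18 in double transgenic against 8.63, 9.1 and 7.74 in mutALK tumours (-1.16 ± 0.26, adjusted p = 0.0163). The call was lost without mutALK 1, mutALK 2 or double transgenic 2, with the 2 groups alone and with the title number as a random block (0.0507 to 0.09). The Ntn4 difference was -1.87 without the liver arrays, where mutALK is 1 array. Unc5b, a netrin receptor of vessels and neurons, read 6.91, 6.13 and 7.09 against 7.12, 8.11 and 8.53 in mutALK tumours (-1.21 ± 0.35, adjusted p = 0.0413) and lost its call in 11 of 23 alternatives, with adjusted p up to 0.156. Unc5c, a further netrin receptor, differed in double transgenic minus MYCN tumours by -1.22 ± 0.35 (adjusted p = 0.0436) and lost its call in 15 of 23 alternatives, with adjusted p up to 0.287.

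**Figure D5:**
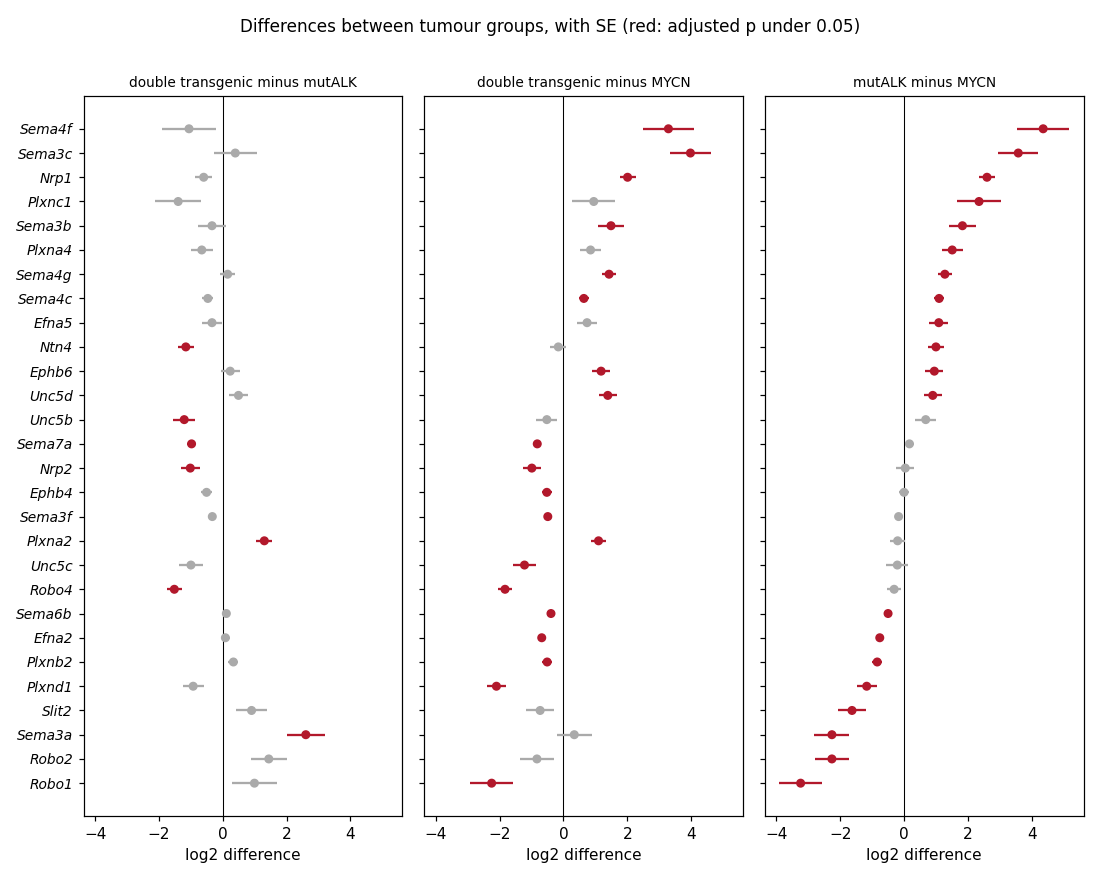
Log2 difference with SE of the 28 genes called in at least 1 comparison between tumour groups, as double transgenic minus mutALK, double transgenic minus MYCN and mutALK minus MYCN. Red points have an adjusted p under 0.05. Sema4f, Sema3c and Nrp1 lie to the right in both comparisons with MYCN tumours, and Sema3a and Plxna2 are the 2 red points to the right in double transgenic minus mutALK.

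Robo4, a receptor that blood vessel lining is known to carry, was lower in double transgenic tumours than in every other group, and endothelial markers had their lowest list means there. Robo4 read 5.35, 4.64 and 4.88 in double transgenic, 6.18, 6.57 and 6.69 in mutALK and 6.3, 6.74, 6.9 and 7.22 in MYCN tumours, against 7.85, 8.11 and 7.87 in gland. The double transgenic arrays lay below all single transgenic arrays and these below the gland. Robo4 differed in double transgenic tumours by -1.52 ± 0.24 from mutALK (adjusted p = 0.00379), -1.83 ± 0.23 from MYCN (0.00102) and -2.99 ± 0.24 from gland arrays (2.06e-06). Plxnd1, an endothelial plexin that binds Sema3e, read 7.07, 7.22 and 7.1 in double transgenic, 8.39, 7.85 and 7.93 in mutALK and 8.21, 9.63, 9.22 and 9.85 in MYCN tumours, against 9.85, 9.72 and 9.97 in gland. It differed in double transgenic tumours by -2.1 ± 0.31 from MYCN (adjusted p = 0.00234) and -2.72 ± 0.33 from gland arrays (4e-05), and its difference from mutALK tumours of -0.93 was not called. In mutALK tumours Plxnd1 differed by -1.79 ± 0.33 from gland (adjusted p = 0.0011). It was also called lower in mutALK than in MYCN tumours (means 8.06 and 9.23), and MYCN tumours were not called against gland. Ephb4, a receptor of veins, fell against gland in double transgenic, mutALK and MYCN tumours (-1.74 ± 0.17, -1.23 ± 0.17 and -1.23 ± 0.15, adjusted p = 6.24e-06, 0.000119 and 4.12e-05).

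The 13 endothelial markers had list means of 5.72 to 6.3 in double transgenic, 6.87 to 7.56 in mutALK and 6.46 to 7.64 in MYCN tumours, against 8.73 to 9.11 in gland. Against gland 12, 12 and 13 of the 13 were called lower in these tumour groups, and in double transgenic tumours 8 were lower than in mutALK and 8 lower than in MYCN tumours. In mutALK minus MYCN tumours 1 was higher and 0 lower (median -0.06). Fibroblast and mural markers also had lower list means in double transgenic tumours (7.42 to 8.77) than in mutALK (9.44 to 10.1) and MYCN tumours (9.37 to 9.92), against 9.54 to 10.59 in gland. The part of these cells in the values of Robo4, Plxnd1, Ephb4, Sema3g and Nrp1 was not tested. Pan-neuronal markers were higher than gland in 14 of 15 cases in each tumour group and their part in the rises of Dcc, Efnb3, Epha7 and Plxna3 was not tested.

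Of the members not yet described, Sema6a, a transmembrane repellent, rose over gland by 1.1 ± 0.26 in double transgenic (adjusted p = 0.00376) and 1.03 ± 0.26 in mutALK tumours (0.00662), and Sema4d, the ligand of Plxnb1, by 1.46 ± 0.33 in mutALK tumours (0.00402). Efna3 rose by 0.79 ± 0.26 in double transgenic (adjusted p = 0.0263) and 0.74 ± 0.24 in MYCN tumours (0.0256). In mutALK tumours the arterial ligand Efnb2 rose by 0.69 ± 0.25 (adjusted p = 0.0432) and Epha4, a receptor of both ephrin classes, by 0.47 ± 0.15 (0.0218). In MYCN tumours Epha1 differed from gland by -0.57 ± 0.21 (adjusted p = 0.041) and Plxnb3, the receptor of Sema5a, by -0.53 ± 0.19 (0.0389). Sema6b was called between tumours only, at -0.39 ± 0.1 in double transgenic minus MYCN (adjusted p = 0.0271) and -0.5 ± 0.1 in mutALK minus MYCN tumours (0.00294).

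Other genes of guidance signalling moved unequally. Of 27 further cues and receptors, 9 rose and 6 fell in double transgenic, 8 rose and 6 fell in mutALK and 8 rose and 9 fell in MYCN tumours against gland, where 24.3% of all genes rose and 24.2% fell, 21.3% and 21.0%, and 25.4% and 24.8%. Celsr3, an atypical cadherin needed for axon tracts, rose by 4.24, 3.35 and 3.63 (adjusted p = 1.22e-05, 0.000106 and 1.89e-05), and Boc, a co-receptor for Sonic hedgehog, fell (-3.49, -3.39 and -3.27, adjusted p = 5.69e-07, 1.21e-06 and 3.16e-07). Chl1, an adhesion molecule that partners Nrp1, fell by 5.66 in MYCN tumours against gland (2.05e-06) and was higher than in MYCN tumours by 3.7 in double transgenic (0.00129) and 6.65 in mutALK tumours (1.52e-05). Of 47 measured signal transducers, 22 rose and 8 fell in double transgenic, 23 rose and 8 fell in mutALK and 21 rose and 10 fell in MYCN tumours, with median differences of 0.5, 0.54 and 0.47 where the median over all genes was -0.03, 0 and -0.02. Crmp1, which relays Sema3a signals to the growth cone, rose by 4.44, 4.18 and 3.62 (adjusted p = 2.51e-05, 6.3e-05 and 5.82e-05), and Cdk5r1, an activator of the kinase Cdk5, by 3.9, 3.76 and 3.93 (6.94e-06, 1.56e-05 and 2.96e-06). Dock1, a Rac activator that works with Dcc, fell (-4.42, -3.89 and -3.69, adjusted p = 1.61e-06, 7.2e-06 and 2.47e-06). Dpysl3, another CRMP, was higher than in MYCN tumours by 2.46 in double transgenic (0.0299) and 3.29 in mutALK tumours (0.00264).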

How the data were processed

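The deposited table holds log2 expression of 45101 probe sets on 13 arrays, made by the authors with RMA in Partek, per the submitters' processing notes. No version was given in the sources used here. RMA background-corrects, quantile-normalizes and summarises probes, which compresses differences of dim genes. Whether all arrays were processed in 1 session is not stated. Array medians were 5.8 to 5.9, values ran from 2.04 to 14.5, and no pair of arrays was identical (within-group correlations across genes 0.938 to 0.991). Signal over background was not analysed, and the number of arrays limits the precision.

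Probe sets with exactly 1 symbol (34945, after leaving out control probe sets, 932 with several symbols and those without a name) were named through the platform annotation, with symbols looked up by gene ID in RefSeq for GRCm38.p6, which changed 0 symbols. The brightest probe set on average stood for each gene, giving 18193 genes and 68 members, of which 45 have several probe sets. Ephb2 also fits the naming rule but is not analysed here. Groups came from the genotype labels.

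limma 3.58.1 in R 4.3.3 (lmFit, eBayes) estimated a mean for each of the 4 groups from the 13 arrays together (residual df 9, prior df 2.28), and two-sided p-values were adjusted by Benjamini-Hochberg across the 18193 genes. The fit was tested on simulated data. The named members were the called ones that differ by 2-fold or more without overlap between groups, up to 8 rises and 8 falls per comparison. Those the account turns on are given array by array and the others by their differences, and some further members were chosen for their role after their values were seen. The members and gene lists were chosen with earlier results of these data known. Alternatives were a second quantile normalization, median centring, averaging a gene's probe sets, fitting each probe set separately, removing the dimmest 40% of genes (and with them 21 members), a variance trend with robust eBayes, fitting only the 2 groups compared, treating arrays with a common title number as 1 or as a random block, and dropping each array. With the title number as a random block the correlation within a block was 0.456. Leaving out the 5 liver arrays was added after the data were seen, and mutALK is then 1 array, assumed to vary like the other groups. Figures were drawn with matplotlib 3.10.9.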

Additional observations from a re-analysis of the deposited data

Results flagged for a closer look

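In MYCN tumours, the only group with 4 or more arrays, the lowest or highest array stood apart from the others by Dixon's criterion for 2 of the 68 genes, where chance gives about 1 in 20 groups. Epha8, a dim gene, read 4.86 in MYCN 4 against 5.17 in each of MYCN 1, 2 and 3. Since those values are tied at this precision, the criterion says little about Epha8. Plxna1 read 8.13 in MYCN 2 against 8.4 in the nearest other array. Neither gene was called in a comparison that involves MYCN tumours.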

How the results depend on the processing

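Of 23 alternatives, that without the dimmest genes did not test 21 of the 77 differences of the named genes. None of the 77 reversed where it was tested, 54 were called in every alternative that tested them and 23 lost the call in at least 1, of which 11 lost it without the liver arrays. Most of the calls lost are named beside the genes. Most counts stayed within 1.5 times of those reported. In double transgenic minus mutALK tumours the 2 members higher became 1 without the dimmest genes, 0 with the 2 groups alone, 1 with arrays sharing a title number averaged and 0 without the liver arrays, and the 5 lower became 3 with averaging and 2 with the title number as a random block. In double transgenic minus MYCN tumours the 9 higher became 14 with the 2 groups alone and the 11 lower became 5 with averaging and 5 with the block. In mutALK minus adrenal the 14 lower became 9 without the dimmest genes, and in mutALK minus MYCN the 8 lower became 4 without the liver arrays. Among the genes left out as dimmest, and so no longer counted, were Epha3, Ephb6, Ntn1, Sema3d and Sema5b in mutALK minus adrenal. In double transgenic minus mutALK tumours Sema3a was left out in the same way. Leaving out single arrays gave 4 to 11 higher and 4 to 11 lower in double transgenic minus MYCN and 1 to 3 higher and 2 to 7 lower in double transgenic minus mutALK. The causes of the changes in the other settings were not tested. Over all genes double transgenic minus mutALK gave 1162 calls with the 2 groups alone, 1624 with averaging, 1582 with the block and 1006 to 3659 without single arrays, against 2624, and double transgenic minus MYCN gave 1394 with averaging and 1226 to 3369 without single arrays, against 2333. Fitting each probe set separately gave 4928 and 4650 calls of 34945. No paired analysis was possible because the labels give the groups no shared replicate numbers. What signal over background limits was not analysed.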
